A study of Mus musculus with 12 samples.

Results

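Vascular endothelial cells were followed in the tibialis anterior, a hindlimb muscle, through 10 genes chosen by symbol as identity genes of that cell type: Kdr, Flt1, Tek, Tie1, Eng, Pecam1, Cdh5, Emcn, Vwf and Sox17. All 10 were found among the 24421 entries of the count table, and all 10 passed the filter on low counts that left 13937 genes. The muscle was taken from 12 males at 4 months of age: 6 were C57Bl/6, here WT, and 6 were mdx/mTR. The mdx allele disrupts the dystrophin gene Dmd, and mTR is a name of the mouse telomerase RNA gene. The labels give the mdx/mTR line by that name alone, without the generation of telomerase loss, and no group carries either mutation by itself, so the 2 mutations and any other difference between the strains cannot be told apart.

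Endothelial cells line every vessel, and in skeletal muscle most of them form the capillaries that run along the fibres. Their growth and survival depend on vascular endothelial growth factors (VEGF) made by fibres and other cells, which bind the receptor tyrosine kinases encoded by Kdr and Flt1. A separate pair of receptors, Tek (also called Tie2) and Tie1, responds to angiopoietins and governs vessel stability, and endoglin (Eng) is a co-receptor for ligands of the BMP family. The remaining genes encode the junction proteins PECAM-1 (Pecam1) and VE-cadherin (Cdh5), the surface sialomucin endomucin (Emcn), the clotting protein von Willebrand factor (Vwf) and the transcription factor SOX17, which acts in arterial endothelium.

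Between 36903560 and 40981012 counts were assigned to genes per WT library, and between 35136327 and 60330410 per mdx/mTR library. Levels are CPM, that is, each count relative to its library's total after adjustment by the TMM factor (trimmed mean of M-values). A gene with no count could still be present at 3 counts, equal to 0.0460 to 0.0837 CPM by counting error only. Dmd, the gene hit by the mdx allele, was lower in each mdx/mTR mouse (35.2 to 56.4 CPM) than in any WT mouse (228 to 244 CPM). The fibre genes Acta1 (31023 CPM in WT), Atp2a1 (43193 CPM) and Ckm (15188 CPM) marked the tissue as muscle. Of the WT libraries, replicate 2 stood apart, with the highest level of 9 of the 10 endothelial genes and of the myoglobin gene Mb (5019 CPM against 2577 to 2906 CPM).

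Endothelial transcripts were lower in mdx/mTR muscle. All 10 genes had a log2 fold change below 0, and 8 of 10 fell (edgeR quasi-likelihood test, Benjamini-Hochberg adjusted p under 0.05 over all 13937 genes), namely Flt1, Emcn, Tek, Vwf, Kdr, Eng, Tie1 and Sox17, by 13.2% to 37.9%. Pecam1 and Cdh5 did not pass, and none rose. Over all genes tested, 48.3% were called, 23.4% lower and 25.0% higher. The median log2 fold change of the endothelial genes was -0.41, beside 0.01 for all genes tested. Markers of other cells differed too: leukocyte and macrophage genes summed to 45.8 to 78.8 CPM per WT library and 118 to 352 CPM per mdx/mTR library, and their part in the endothelial results was not tested. In a whole-muscle sample, fewer endothelial cells and less of these RNAs per cell cannot be told apart.

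How libraries are scaled mattered for the calls. The WT factors (0.929 to 0.971) all lay below the mdx/mTR factors (0.988 to 1.16), and scaling by library totals alone shifted the median of all genes by 0.16 on the log2 scale and the share of calls that were higher from 51.6% to 78.2%. Under library totals the endothelial median was -0.25 against 0.17 for all genes. The gap was -0.42 under both scalings. Scaling shifts every gene by about the same amount, so this gap could hardly change and is no separate evidence. All 10 genes kept a log2 fold change below 0, but only 4 fell with adjusted p under 0.05: Flt1 (-0.54), Emcn (-0.44), Tek (-0.38) and Vwf (-0.37). Values below use TMM.

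**Figure D1:**
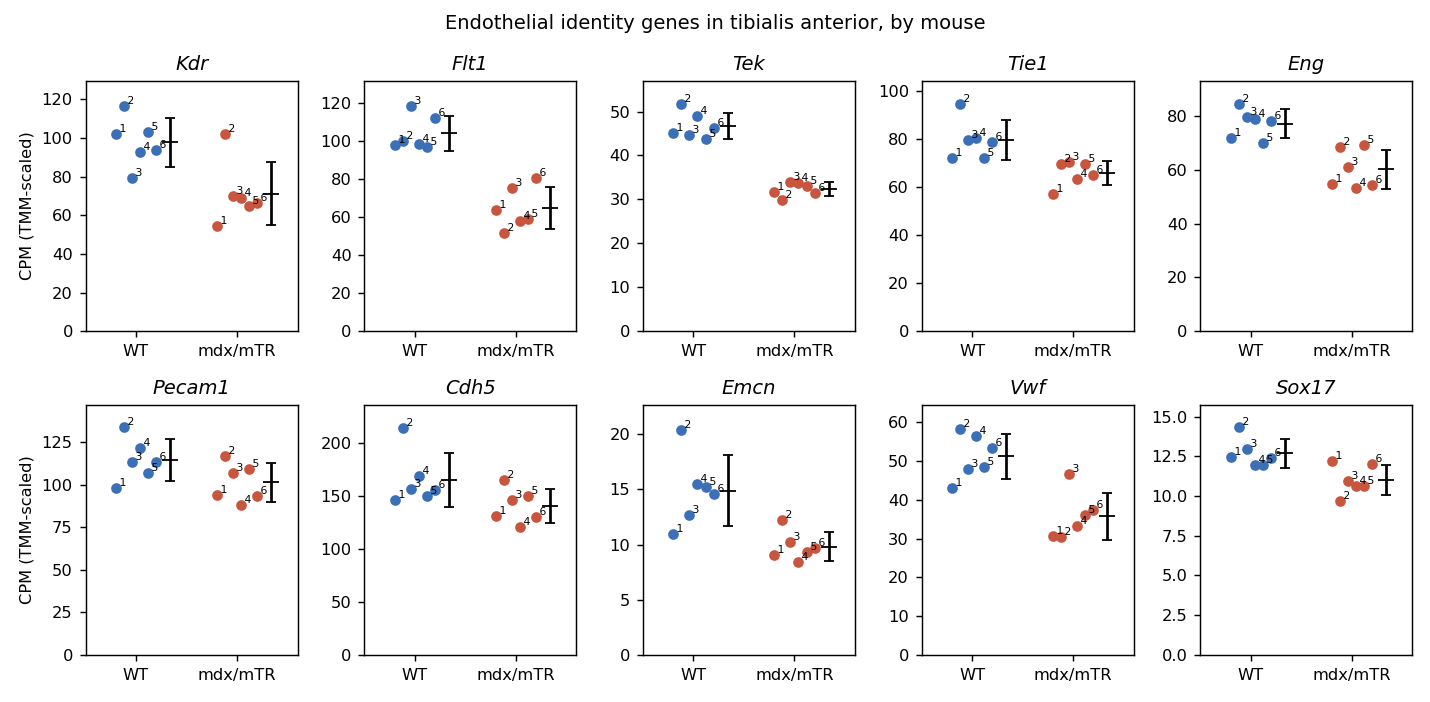
Level of each endothelial gene in each mouse (y axis, TMM-scaled CPM, linear from 0; points numbered by replicate; bar and whiskers, mean and SD of 6 mice), WT in blue and mdx/mTR in red. The groups do not overlap for Flt1, Tek, Tie1 and Eng, whereas Pecam1 and Cdh5 overlap broadly and WT replicate 2 is the highest point of every panel except Flt1.

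Flt1 encodes VEGF receptor 1, which binds VEGF-A tightly, signals weakly and is also made as a soluble decoy. It had the lowest fold change of the 10. Its level was 96.9, 99.5 and 119 CPM in WT (lowest, median, highest) and 51.5, 61.6 and 80.5 CPM in mdx/mTR. Every mdx/mTR mouse lay below every WT mouse. The mean fell from 104 ± 9.13 to 64.7 ± 11.1 CPM (SD, n = 6 each), a log2 fold change of -0.69 ± 0.10 (SE; edgeR adjusted p 1.03e-04). Counts per gene do not separate the soluble from the membrane form.

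Kdr encodes VEGF receptor 2, the main signalling receptor for VEGF-A on endothelium. Its level was 79.1, 97.8 and 117 CPM in WT and 54.5, 67.5 and 102 CPM in mdx/mTR. Of the mdx/mTR mice, 5 lay below all WT mice, and replicate 2 lay inside the WT range at 102 CPM. The log2 fold change was -0.46 ± 0.13 (edgeR adjusted p 0.00953), and -0.59 without mdx/mTR replicate 2. That mouse had the highest Kdr and the lowest Flt1 of its group, and WT replicate 3 had the lowest Kdr (79.1 CPM) and the highest Flt1 (119 CPM) of its own.

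Tek encodes the angiopoietin receptor itself. Its level was 43.7, 45.7 and 51.6 CPM in WT and 29.9, 32.4 and 33.9 CPM in mdx/mTR. The groups did not overlap, and the spread within a group was small, with coefficients of variation of 6.48% and 4.92%. The log2 fold change was -0.53 ± 0.05 (edgeR adjusted p 4.31e-06), the smallest p of the 10 genes. Tie1, a partner that modulates Tek, had 72.1, 79.2 and 94.6 CPM in WT and 57.1, 67.3 and 70.4 CPM in mdx/mTR. Its groups did not overlap either, but its log2 fold change was nearer to 0, at -0.27 ± 0.07 (edgeR adjusted p 0.00586).

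Eng had 69.8, 78.4 and 84.4 CPM in WT and 53.2, 57.8 and 69.2 CPM in mdx/mTR. The highest mdx/mTR mouse (69.2 CPM) was just below the lowest WT mouse (69.8 CPM). The log2 fold change was -0.36 ± 0.08 (edgeR adjusted p 0.00168). With Flt1, Tek and Tie1 this made 4 of 10 endothelial genes whose mdx/mTR libraries all lay below all WT libraries, a pattern found for 12.6% of the genes tested.

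Since scaling cannot change a ratio within a library, each receptor was also set against its partner. The Tek to Tie1 ratio was 0.546, 0.596 and 0.624 in WT and 0.429, 0.482 and 0.556 in mdx/mTR. In 5 of 6 mdx/mTR mice it was below every WT mouse. The mean went from 0.589 ± 0.0304 to 0.493 ± 0.0454 (SD, n = 6 each), a log2 difference of -0.26 (two-sided exact permutation test, p = 0.00433; adjusted over the 2 ratios, 0.00866). With 6 mice against 6 the smallest p is 0.00216. Tek was therefore lower relative to Tie1 in mdx/mTR. The Flt1 to Kdr ratio was 0.858, 1.01 and 1.5 in WT and 0.504, 0.991 and 1.22 in mdx/mTR, with wide overlap. Its log2 difference was -0.22 (exact permutation p = 0.372, adjusted 0.372) and -0.05 without mdx/mTR replicate 2, so no difference beyond the spread between mice was detected.

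**Figure D2:**
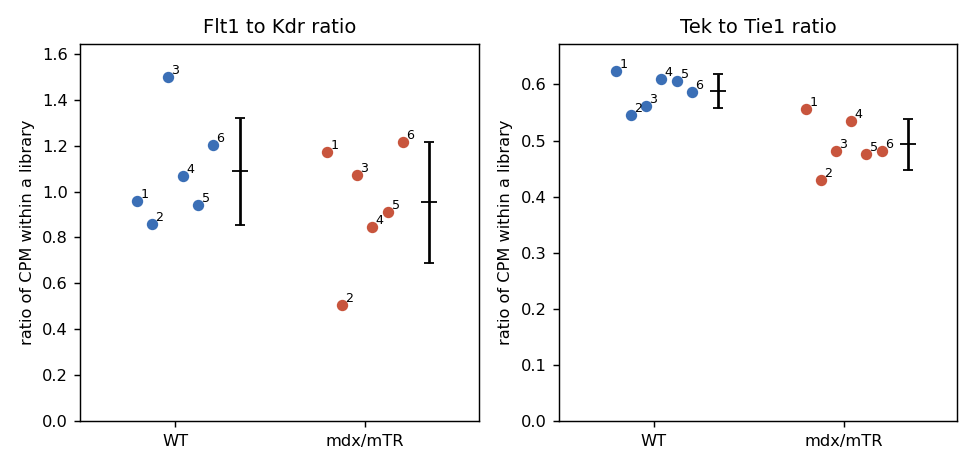
Ratio of Flt1 to Kdr (left) and of Tek to Tie1 (right) in each mouse (y axis, ratio of CPM within a library, linear from 0; points numbered by replicate; bar and whiskers, mean and SD of 6 mice). The Tek to Tie1 ratio is below the WT range in 5 of 6 mdx/mTR mice, while the Flt1 to Kdr ratios overlap and mdx/mTR replicate 2 is lowest at 0.504.

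Promoter windows from RefSeq (GRCm38.p6) were available here for 6 of the 10 genes (Eng, Emcn, Tek, Tie1, Kdr and Flt1). The 250 bases before the RefSeq start are shown for Flt1, Tek and Eng, whose groups did not overlap, and for Kdr, the partner of Flt1. Tie1 is not shown because most of its window lies inside the GENCODE M21 gene. The end of the Emcn window and the last 3 bases of the Kdr window also lie inside their genes. Capitals mark GGAAG or its reverse complement CTTCC, the core bound by ETS factors such as ERG and FLI1, which control many endothelial genes. The windows are chr5:147726012-147726261 (minus strand) for Flt1, chr5:75978456-75978705 (minus) for Kdr, chr4:94739039-94739288 (plus) for Tek and chr2:32646345-32646594 (plus) for Eng, each written 5′ to 3′ on the gene's strand.
Flt1: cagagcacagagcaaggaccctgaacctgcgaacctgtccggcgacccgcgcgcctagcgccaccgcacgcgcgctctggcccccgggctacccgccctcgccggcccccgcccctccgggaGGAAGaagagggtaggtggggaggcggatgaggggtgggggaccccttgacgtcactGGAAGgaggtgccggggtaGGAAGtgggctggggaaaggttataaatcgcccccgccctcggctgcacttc
Kdr: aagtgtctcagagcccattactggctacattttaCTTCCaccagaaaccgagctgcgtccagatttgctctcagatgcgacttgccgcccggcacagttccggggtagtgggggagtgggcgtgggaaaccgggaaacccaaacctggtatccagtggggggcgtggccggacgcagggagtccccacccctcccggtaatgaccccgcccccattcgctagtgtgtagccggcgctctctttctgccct
Tek: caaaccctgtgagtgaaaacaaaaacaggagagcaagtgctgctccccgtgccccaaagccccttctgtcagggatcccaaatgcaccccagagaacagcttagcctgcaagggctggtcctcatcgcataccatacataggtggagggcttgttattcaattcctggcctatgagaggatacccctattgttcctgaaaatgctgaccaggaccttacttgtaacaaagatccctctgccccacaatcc
Eng: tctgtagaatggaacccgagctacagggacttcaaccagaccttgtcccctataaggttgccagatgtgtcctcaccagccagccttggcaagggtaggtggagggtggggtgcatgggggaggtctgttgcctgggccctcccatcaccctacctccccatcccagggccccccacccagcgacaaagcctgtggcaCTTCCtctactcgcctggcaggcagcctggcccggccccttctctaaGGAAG
The Flt1 window holds 3 matches, Eng 2 and Kdr 1, and Tek has 0. The windows not shown, which lie partly inside their genes, hold 6 (Tie1) and 2 (Emcn). Of the 6 windows, 5 held GGAAG on either strand, against 64.1% of all 32851 windows of the same length. Both strands were also searched for ACAAT, the core of SOX sites, which lay in 2 of 6 windows (Tek and Emcn) and in 27.7% of all. The core of GATA factor sites, GATAA, lay in 0 of 6 windows and in 22.6% of all. The TATA box letters TATAAA lay in 1 of 6 windows (Flt1) and in 12.4% of all. In these 6 windows no match of one motif overlapped a match of another. A match shows only that the letters are present.

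The junction genes did not pass the test. Cdh5 encodes VE-cadherin, the adhesion protein of endothelial adherens junctions. Its WT level was 146, 155 and 213 CPM, against 121, 138 and 164 CPM in mdx/mTR. The groups overlapped, and the log2 fold change was -0.23 ± 0.10 (edgeR p 0.0325, adjusted p 0.0642). It passed in DESeq2 (adjusted p 0.0451), without mdx/mTR replicate 2 (adjusted p 0.0294) and without WT replicate 1 (adjusted p 0.0476). Without WT replicate 2, which stood at 213 CPM, the log2 fold change was -0.14.

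Pecam1 encodes the adhesion protein CD31, which is also on platelets and many leukocytes. Its level was 98.1, 113 and 134 CPM in WT and 87.9, 100.3 and 117 CPM in mdx/mTR. The ranges overlapped over most of their length, and the log2 fold change was -0.18 ± 0.08 (edgeR p 0.0504, adjusted p 0.0920). Scaling by library totals gave -0.02. Leaving out mdx/mTR replicate 2 or WT replicate 1 gave -0.22 in each case, and the gene then passed (adjusted p 0.0376 and 0.0420).

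Emcn encodes endomucin, found mainly on capillary and venous endothelium. It had 10.97, 14.9 and 20.4 CPM in WT and 8.44, 9.50 and 12.3 CPM in mdx/mTR. Of the mdx/mTR mice, 5 lay below the lowest WT mouse. The log2 fold change was -0.60 ± 0.13 (edgeR adjusted p 0.00213), and -0.49 without WT replicate 2, its highest library. WT spread was the widest of the 10 genes, with a coefficient of variation of 21.5%.

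Vwf encodes the protein that tethers platelets and is stored in endothelial granules. It had 43.0, 51.0 and 58.3 CPM in WT and 30.4, 34.8 and 46.7 CPM in mdx/mTR. Only mdx/mTR replicate 3, at 46.7 CPM, reached the WT range. The log2 fold change was -0.52 ± 0.10 (edgeR adjusted p 0.00111), and -0.61 without that mouse.

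Sox17 had 11.9, 12.4 and 14.3 CPM in WT and 9.67, 10.8 and 12.2 CPM in mdx/mTR. Of the mdx/mTR mice, 4 lay below the WT range. The log2 fold change was -0.20 ± 0.07 (edgeR adjusted p 0.0280), and this call depended on single mice: it was lost without mdx/mTR replicate 2 (adjusted p 0.0611), mdx/mTR replicate 4 (0.0524), WT replicate 2 (0.0588) or WT replicate 3 (0.0518). A noncoding gene on the other strand, Gm37587, covers 16.8% of the Sox17 exons, and since strand handling of the counts is not given in the sources used here, reads of the 2 genes may be mixed. For Eng the overlapping gene Fpgs covers 1.51%, and the other 8 genes have none. None of the 10 shares a 50-base stretch of its longest coding transcript with another gene of GENCODE M21.

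**Figure D3:**
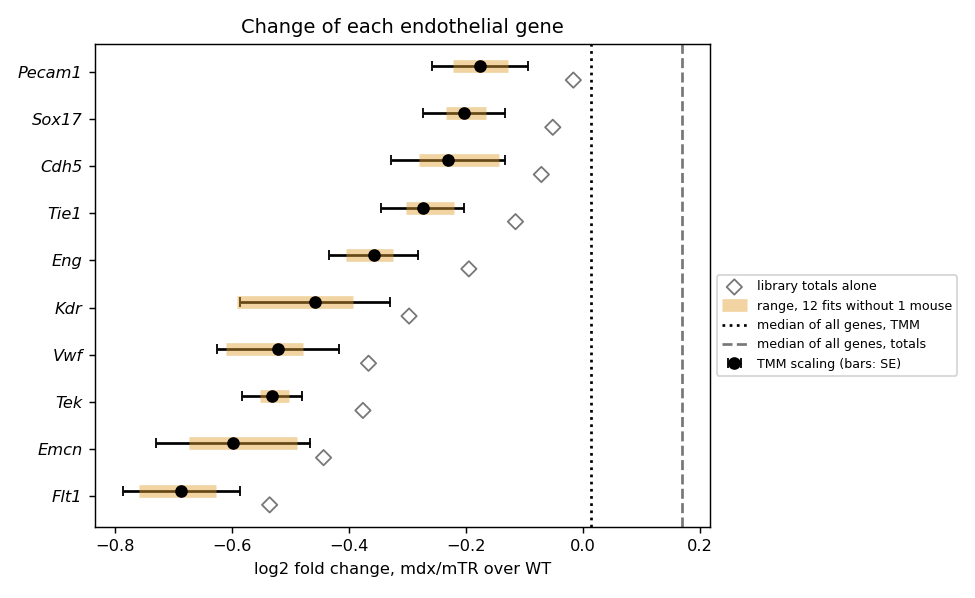
Difference of mdx/mTR from WT as a log2 fold change (x axis) for each endothelial gene with TMM scaling (filled points, SE), with library totals alone (diamonds) and over the 12 fits that each leave out 1 mouse (shaded range). All points lie below 0, from -0.69 for Flt1 to -0.18 for Pecam1 with TMM, and left of the median of all genes under the same scaling.

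Levels of different genes were compared per kilobase of GENCODE M21 exon. In that annotation (GRCm38) Flt1 lies at chr5:147561604-147726011 and Kdr at chr5:75932827-75978458, both on the minus strand, and Tek lies at chr4:94739289-94874976 (plus) and Tie1 at chr4:118471191-118490061 (minus). Eng is at chr2:32646595-32682669 (plus), Pecam1 at chr11:106654217-106750628 (minus) and Cdh5 at chr8:104101625-104144511 (plus). Emcn is at chr3:137341067-137432185 (plus), Vwf at chr6:125546774-125686679 (plus) and Sox17 at chr1:4490931-4497354 (minus). In WT the order was Cdh5 (39.2 ± 5.98 CPM per kilobase), Eng (19.04 ± 1.33), Pecam1 (18.4 ± 1.96), Tie1 (16.2 ± 1.67), Kdr (10.8 ± 1.40), Tek (9.91 ± 0.642), Flt1 (7.71 ± 0.676), Vwf (3.19 ± 0.361), Emcn (2.75 ± 0.592) and Sox17 (2.66 ± 0.189). Cdh5 stood above all others in each group. The length used joins the exons of all transcripts of a gene. For Flt1 this is 13.5 kilobases against 6895 bases in its longest coding transcript, and for Tek 4.71 kilobases against 4654 bases. The order was not checked with other lengths. The ranges over mice overlapped between Eng, Pecam1 and Tie1, between Kdr and Tek, between Kdr and Flt1, and among Vwf, Emcn and Sox17. These ranges ignore that the genes share libraries, so their overlap does not settle the order either way. The order of genes within a library was not tested. Kdr and Flt1 overlapped through WT replicate 3. In mdx/mTR the first 7 were the same genes, with Pecam1 (16.3 ± 1.80) ahead of Eng (14.9 ± 1.80), and Sox17 (2.31 ± 0.199) stood before Vwf (2.23 ± 0.378) and Emcn (1.82 ± 0.248). The ranges of these reordered neighbours overlapped.

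Within a group, 6 of the 10 genes tended to deviate together from mouse to mouse. Deviations of log2 CPM from the group mean over the 12 libraries gave a Pearson r of 0.95 between Pecam1 and Cdh5, 0.90 between Pecam1 and Eng and 0.86 between Cdh5 and Tie1. The r with the mean of the other 9 genes was 0.92 for Tie1, 0.88 for Cdh5, 0.85 for Pecam1, 0.79 for Emcn, 0.62 for Eng and 0.56 for Vwf. It was lower for Tek (0.45), Kdr (0.30), Sox17 (0.05) and Flt1 (-0.13). Flt1 and Kdr had an r of -0.56. These values describe the libraries, which share scaling and depth differences. Of 9499 other genes with a mean of at least 5 CPM, those most like the mean deviation of the 10 were Cilp2 (r 0.94), Arhgef7 (0.91), 2210016F16Rik (0.91), Sema3b (0.91) and Mpzl1 (0.90), each over 12 libraries, and none of these 5 was on any vascular list used here. Their group differences were mixed: Cilp2 rose (log2 fold change 0.63), as did 2210016F16Rik (0.47), Arhgef7 fell (-0.45), and Sema3b (0.15) and Mpzl1 (0.04) were not called.

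**Figure D4:**
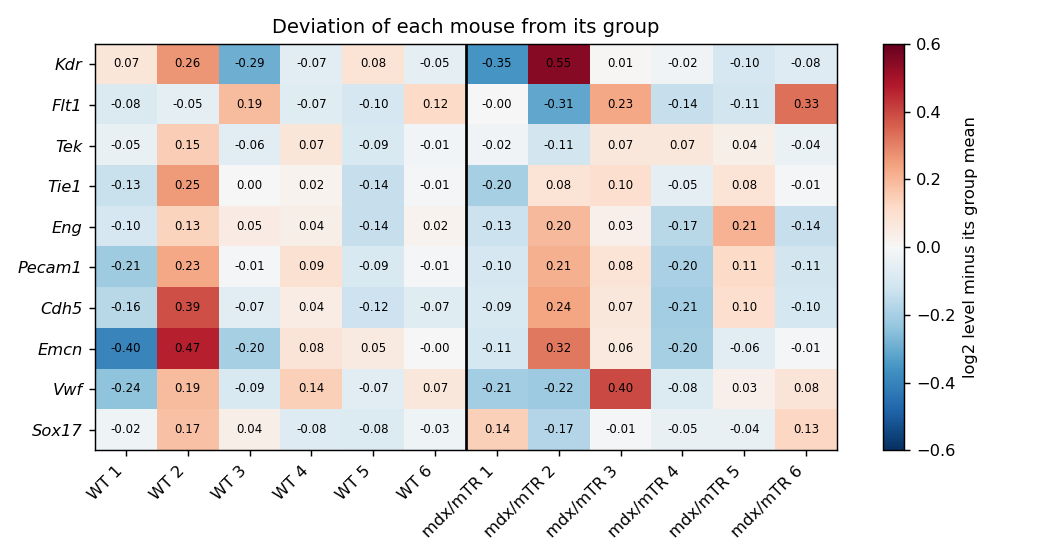
Log2 level of each endothelial gene minus its group mean (colour and printed value) in each mouse (columns). WT replicate 2 is high for most genes, up to 0.47 for Emcn, and mdx/mTR replicate 2 is high for Kdr (0.55) but low for Flt1 (-0.31).

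Genes beyond the 10 that mark endothelium were lower in part. Of 17 other pan-endothelial genes, 9 fell, 1 rose and 7 were not called, with a median log2 fold change of -0.20. The largest falls by p were those of Adgrf5, an adhesion receptor of capillary endothelium (234 ± 27.7 to 147 ± 19.7 CPM; log2 fold change -0.67, edgeR adjusted p 8.84e-05), and Podxl, a surface sialomucin (-0.57, adjusted p 8.99e-05). Cldn5, the endothelial tight junction claudin, rose from 26.4 ± 5.47 to 37.4 ± 10.1 CPM (0.50, adjusted p 0.0235). With library totals alone 5 of the 17 fell.

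Transcription factors of endothelium mostly did not pass: of 15 tested, 12 were not called, 1 fell and 2 rose, and the median was 0.01. Gata2 fell (-0.34, edgeR adjusted p 0.00217), and Lyl1 (0.76) and Lmo2 (0.50), both also active in blood cells, rose. The ETS genes Erg (-0.15, adjusted p 0.204) and Fli1 (0.11, adjusted p 0.323) and the SOX17 relatives Sox7 (-0.16) and Sox18 (0.10) were not called. Etv2 had a count of 0 in all libraries.

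Of the 5 ligand genes for VEGF receptors, 2 fell. Vegfa fell from 382 ± 26.5 to 296 ± 47.6 CPM (-0.37, edgeR adjusted p 0.00626), without overlap, and Vegfb fell from 128 ± 11.5 to 102 ± 11.4 CPM (-0.33, adjusted p 0.00379). Of the 8 ligands and co-receptors, 3 fell, the third being the lymphatic receptor gene Flt4 (-0.26), and none rose; 2 fell without WT replicate 2. The co-receptor genes Nrp1 (-0.21) and Nrp2 (0.12) and the ligands Vegfc, Figf (Vegfd) and Pgf were not called. With library totals alone 0 of 8 passed.

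Around Tek, the agonist gene Angpt1 fell from 19.5 ± 2.10 to 14.6 ± 1.92 CPM (-0.41, edgeR adjusted p 0.00250), and so did Ptprb, the endothelial phosphatase that restrains Tek (176 ± 16.8 to 123 ± 9.62 CPM; -0.52, adjusted p 5.57e-05). The context-dependent antagonist Angpt2 was not called (3.10 ± 0.345 and 2.72 ± 0.614 CPM; adjusted p 0.303). Svep1, a matrix protein that binds Tie1, rose (1.05, adjusted p 1.76e-05), as did Dok2 (1.25, adjusted p 0.0108), an adaptor also found in blood cells. Fibroblast markers rose as well (median 0.93), and the part of other cell types in the Svep1 rise was not tested. Of the 5 genes tested, 2 fell and 2 rose, under library totals too.

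Around endoglin, 3 of 13 tested genes fell and 4 rose, with a median of 0.06. These counts are near the shares over all genes tested, 23.4% lower and 25.0% higher. The receptor gene Acvrl1, which endoglin assists, was not called (21.4 ± 1.70 and 19.97 ± 1.01 CPM; adjusted p 0.175). Smad4 (-0.28) and Acvr2a (-0.25) fell, while Id2 (1.07) and Smad1 (0.55) rose. The ligand genes Gdf2 and Bmp10 had 1 and 0 counts in all libraries together. Partners of VE-cadherin at junctions were also mixed, with 4 of 10 tested genes lower, led by Jam2 (-0.46, edgeR adjusted p 1.69e-05) and Mllt4 (-0.28), and 3 higher, led by Vcl (0.39) and Ctnna1 (0.33), which fibres and other cells also express. Of 9 tested genes linked to von Willebrand factor storage and the clotting surface, 5 rose, including Plat (0.89) and Cd63 (0.54), and 2 fell, Procr (-0.49) and Stxbp5 (-0.29). Of 10 Notch pathway genes 1 passed, Jag1 (-0.27, adjusted p 0.00341), and none with library totals alone.

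Markers of vessel segments were counted separately. Of 8 arterial markers 6 fell (median -0.34), including Cxcl12 (150 ± 13.7 to 94.3 ± 13.9 CPM; -0.67, edgeR adjusted p 5.88e-05) and Stmn2 (-0.87, adjusted p 1.41e-04), and with library totals alone 2 fell. Of 10 capillary genes 6 fell (median -0.38), led by Lpl (-1.32) and Cd36 (-0.81), neither specific to endothelium since fibres make both. Gpihbp1 (-0.06), which anchors lipoprotein lipase on capillaries, and Rgcc (-0.02) were not called. Of 6 venous genes none fell and 2 rose, Vcam1 (0.81) and Ackr1 (0.60). The other 4 were not called, 3 of the 6 had a log2 fold change below 0, and the median was 0.16. Over all genes tested, 25.0% were called higher. Of 8 sprouting markers 3 rose, Cxcr4 (1.28), Nid2 (1.0) and Lamb1 (0.96), which other cell types also express, while Esm1 (-0.02), Kcne3 (0.11) and Apln (0.62, adjusted p 0.203) were not called. Of 5 lymphatic genes tested 2 rose, Pdpn (1.65) and Mmrn1 (0.63), and Prox1 (0.35, adjusted p 0.0993) and Lyve1 (0.01) were not called. Pdpn was highest in mdx/mTR replicate 5 (25.7 CPM), which also had the highest leukocyte (352 CPM) and fibroblast (4502 CPM) sums. The part of other cell types in the arterial falls and in the venous and lymphatic rises was not tested. The difference between segments was not tested.

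**Figure D5:**
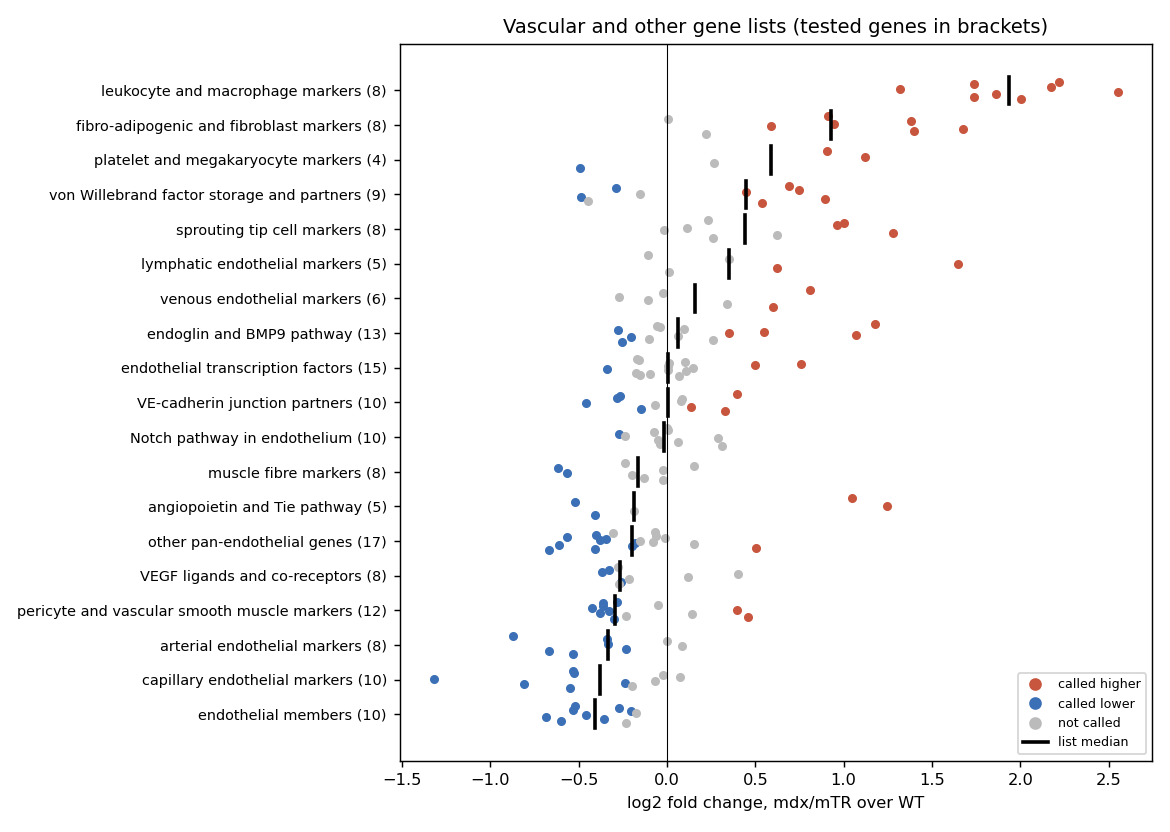
Difference of mdx/mTR from WT as a log2 fold change (x axis) of every tested gene in each list (rows; number tested in brackets), coloured by call, with the list median as a bar. The 10 endothelial identity genes have the lowest median (-0.41) of the 19 lists drawn, and the leukocyte list the highest (1.93).

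Other cell types moved with the same groups. Mural cell genes, of pericytes and smooth muscle, fell in 7 of 12 cases, among them Abcc9 (-0.30) and Notch3 (-0.36), and rose in 2, Acta2 (0.46) and Mcam (0.40). Their median was -0.29, and 2 fell with library totals alone. Abcc9 alone had a mean of 464 CPM in WT, where the whole mural list summed to 933 to 1075 CPM per library. The part of fibres in the Abcc9 level was not tested. Leukocyte and macrophage markers rose in 8 of 8 tested (median 1.93), C1qa from 10.96 ± 1.80 to 36.6 ± 11.6 CPM, and their summed level was 45.8 to 78.8 CPM in WT and 118 to 352 CPM in mdx/mTR. The T cell gene Cd3e and the B cell gene Cd79a had group means of at most 0.165 and 0.203 CPM and were not tested. Fibroblast markers rose in 6 of 8 (median 0.93), with sums of 916 to 1651 and 2284 to 4502 CPM. Fibre markers fell in 2 of 8, Myh4 (-0.62) and Mb (-0.56), near the 23.4% lower over all genes tested. With library totals alone 1 fell and 1 rose. Their sums were 184941 to 206705 CPM in WT and 139657 to 188967 CPM in mdx/mTR. Of 8 platelet genes, 4 were too low to test (Gp6, Gp9, Gp1bb and Treml1, with group means of at most 0.210 CPM), while Pf4 (1.12) and Ppbp (0.91) rose and Gp1ba fell (-0.49). Some of these cells also express Pecam1, Eng or Tek, and the part of any of them in the endothelial results was not tested.

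Of the 10 endothelial genes, 9 have in the authors' deposited table an adjusted p under 0.05, all 9 lower. The gene outside it is Pecam1 (adjusted p 0.0644 in the authors' deposited table), and Cdh5 is inside it at 0.0386. The authors' deposited table gives log2 fold changes of -0.68 for Flt1, -0.54 for Tek and -0.36 for Eng.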

How the data were processed

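RNA of the tibialis anterior of 12 mice was sequenced, 1 library per mouse. The authors deposited whole-number counts per gene symbol, 1 column per mouse, and 0 per-sample columns were left unmatched. The submitters' processing notes name FastQC, STAR, DESeq2 and the build mm10; counter, annotation, versions and strand handling are not given in the sources used here. A second table the authors deposited gives for every gene, per the file headers, the mean signal after normalization, the log2 fold change and its error, the score of the test and both raw and adjusted p-values.

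Counts were tested with edgeR 4.0.16 in R 4.3.3: filterByExpr (13937 of 24421 entries, 99.97% of counts), TMM scaling, glmQLFit and glmQLFTest with group as the only term, and Benjamini-Hochberg adjustment over all tested genes at 0.05. The SE of a log2 fold change was derived from it and the F statistic (absolute change over root F). Ratios were tested with an exact permutation over all 924 splits, doubling the smaller tail. DESeq2 1.42.0, limma-voom (limma 3.58.1), other scalings and filters, a replicate block and each mouse left out were the alternatives. The labels do not state how mice were bred, so p-values measure the spread between these mice. Deviations of same-numbered libraries had correlations from -0.15 to 0.35, with 2 of 6 over 0.1, so replicate numbers were not taken as pairs. Replicates differed by more than sampling noise (chi-square per degree of freedom 9.14 to 128).

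The scripts were tested on simulated data. The endothelial genes and the 18 other lists were chosen with earlier results of these data known. Named genes were the 10, up to 2 called genes of smallest p per list and direction, and the 5 genes most like the mean deviation of the 10; other genes were named after their values were seen. Promoters are RefSeq windows, exon lengths and gene overlaps GENCODE M21 (GRCm38). Python 3.11.15, pandas 2.3.3, scipy 1.17.1 and matplotlib 3.10.9 were used.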

Additional observations from a re-analysis of the deposited data

Results flagged for a closer look

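Genes named by rule, the receptor ratios and some summed list levels were screened for extreme mice. The most extreme mouse of a group of 6 was singled out by its distance to the next mouse. This distance, as a share of the whole range, had to pass Dixon's 95% critical value. This happened in 13 of 142 combinations of item and group, all 13 for genes. Chance alone gives about 7.1 over the 142.

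Among the endothelial genes, WT replicate 2 was highest for Cdh5 (213 CPM against 146 to 168 CPM in the other WT mice) and for Tie1 (94.6 CPM against 72.1 to 80.5 CPM). The mdx/mTR replicate 2 was highest for Kdr, at 102 CPM against 54.5 to 70.2 CPM. WT replicate 2 was also highest for Mb (5019 CPM) and the mural gene Mcam (40.2 CPM) and lowest for Smad4 (68.2 CPM).

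Among the other genes named, mdx/mTR replicate 5 was highest for Pdpn (25.7 CPM against 6.55 to 10.3 CPM) and Dok2 (8.71 CPM against 1.6 to 3.21 CPM) and lowest for Jam2 (45.1 CPM). The mdx/mTR replicate 2 was highest for Vcl (238 CPM) and mdx/mTR replicate 6 for Ackr1 (4.84 CPM). WT replicate 3 was highest for Stmn2 (5.91 CPM) and WT replicate 6 for Pf4 (6.76 CPM).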

How the results depend on the processing

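In all 20 alternatives the 10 endothelial genes kept the sign of their log2 fold change. Of the 200 gene and fit pairs, which come from the same 20 fits, 184 kept their side of the threshold. Flt1, Tek, Vwf and Emcn passed in all 20 (log2 fold changes from -0.76 to -0.37 over these 4 genes). The number of genes that fell was 8, and 4 with library totals alone, where Kdr (adjusted p 0.0973), Eng (0.120), Tie1 (0.30) and Sox17 (0.549) did not pass. It was 7 with upper quartile factors, 9 with DESeq2, and 7 to 10 in the fits that each left out 1 mouse. All genes called numbered 6736, and 6076 to 7241 over the alternatives. With a replicate block 8 of the 10 fell and 6420 genes were called, Cdh5 passing (adjusted p 0.0215) and Sox17 not (0.0629); 2 of 6 libraries correlated best with their own number. The Tek to Tie1 difference was -0.26 when pairs were formed by replicate number (paired exact permutation p 0.0312, adjusted 0.0625), where that p is the smallest that 6 pairs allow. The counts of list genes with library totals alone and without WT replicate 2 were alternatives chosen after seeing the data; without that mouse 7 pan-endothelial (9 with it), 5 arterial (6) and 2 VEGF pathway genes (3) fell, and 3 venous (2), 4 sprouting (3), 4 VE-cadherin partner (3) and 1 platelet gene (2) rose. With library totals alone, genes lower numbered 0 for the endoglin pathway (3 with TMM), transcription factors (1), VEGF pathway (3) and Notch pathway (1), 1 for VE-cadherin partners (4), von Willebrand factor storage (2) and fibres (2), 2 for arterial (6) and mural genes (7), 4 for capillary (6) and 5 for pan-endothelial genes (9). Genes higher numbered 6 for the endoglin pathway (4), 4 for transcription factors (2), VE-cadherin partners (3) and sprouting (3), 3 for lymphatic (2) and 1 for fibre genes (0). Depth limited few results, since every endothelial gene was above 8 CPM in every library.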
